A study of Mus musculus with 10 samples.

Results

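Genes for the subunits of neurotransmitter receptors were examined in brain endothelial cells (BECs) of the cortex. They were taken by symbol as the protein-coding genes of the AMPA, kainate, delta, NMDA and metabotropic glutamate receptors, the GABA-A, GABA-B and glycine receptors, and the nicotinic, muscarinic, dopamine, adrenergic and serotonin receptors. Of 102 such genes in the GENCODE M21 annotation, 21 were among the 14106 genes of the analysed table, and the other 81 were not analysed here. Bulk RNA sequencing covered 10 libraries of 1 year old female mice, 5 of genotype APP/PS1 and 5 of genotype WT, called control. APP/PS1 mice carry a chimeric mouse and human amyloid precursor protein with the Swedish mutation and a human presenilin 1 without exon 9, described as ubiquitously expressed, and both groups shared the C3H/BL6 background. The cells were taken with CD31 microbeads from cortex freed of meninges and myelin, and the number of mice behind each library is not given in the sources used here. The p values therefore refer to these libraries, and in the main fit they measure the spread of the differences between libraries paired by replicate number.

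Ionotropic receptors are ion channels built from several subunits and opened by a transmitter, whereas metabotropic receptors signal through G proteins. Glutamate excites and GABA and glycine inhibit most neurons, and acetylcholine, the catecholamines and serotonin modulate both. In brain vessels, some of these receptors are known for effects on vascular tone, and many glutamate and GABA receptor genes are best known from neurons and glia.

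Values are log2 CPM (the log2 of counts scaled to the library total) as deposited, after the authors' correction for batch. They convert back to whole adjusted counts, which summed to between 22371766 and 126686149 per library, lowest in replicate 1 of each group. The control and the APP/PS1 library with the same replicate number were treated as a pair. The correction set the pair means almost equal, so a high control library goes with a low APP/PS1 library of its pair, and the SD within a group follows the spread of the pair differences, not that between animals. All 20 endothelial marker genes were in the table at a median of 10.18 log2 CPM, against 4.30 for all genes.

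The data show receptor genes of very different levels. Chrnb1 and Gabbr1 were well above the median gene per length, Htr2a below it, and the genes after Htr2a in the order lower still. Levels between genes were compared per kilobase of exon on the log2 scale. Chrnb1, the β subunit of the muscle-type nicotinic receptor, stood at 4.16 ± 0.08 log2 CPM per kilobase (SD over 10 libraries), at the 81.9th percentile of all genes. Gabbr1, the ligand-binding subunit of the GABA-B receptor, stood at 4.09 ± 0.06, and it did not differ from Chrnb1 beyond their spread. Htr2a, the serotonin 2A receptor, was next at 1.30 ± 0.18, at the 32.6th percentile. The lowest was Gabrb1, a β subunit of the GABA-A receptor, at −4.79 ± 0.60 and the 0.213th percentile. Of the 20 steps between neighbours in this order, 15 were smaller than the larger SD of both genes. The steps below Gabbr1, Htr2a, Grik5 and Adrb1 were among those that exceeded it. With the longest annotated transcript as the length, Gabbr1 (4.65) came before Chrnb1 (4.39).

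By class, the table held 3 of 4 AMPA, 2 of 5 kainate and 4 of 7 NMDA receptor genes, and 2 of 8 metabotropic glutamate receptor genes. It held 1 of 19 GABA-A, 1 of 2 GABA-B and 1 of 5 glycine receptor genes. The nicotinic (2 of 16), muscarinic (2 of 5), adrenergic (2 of 9) and serotonin (1 of 14) classes made up the rest. None of the 3 genes matching the delta receptor prefix or of the 5 dopamine receptor genes was among them.

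**Figure D1:**
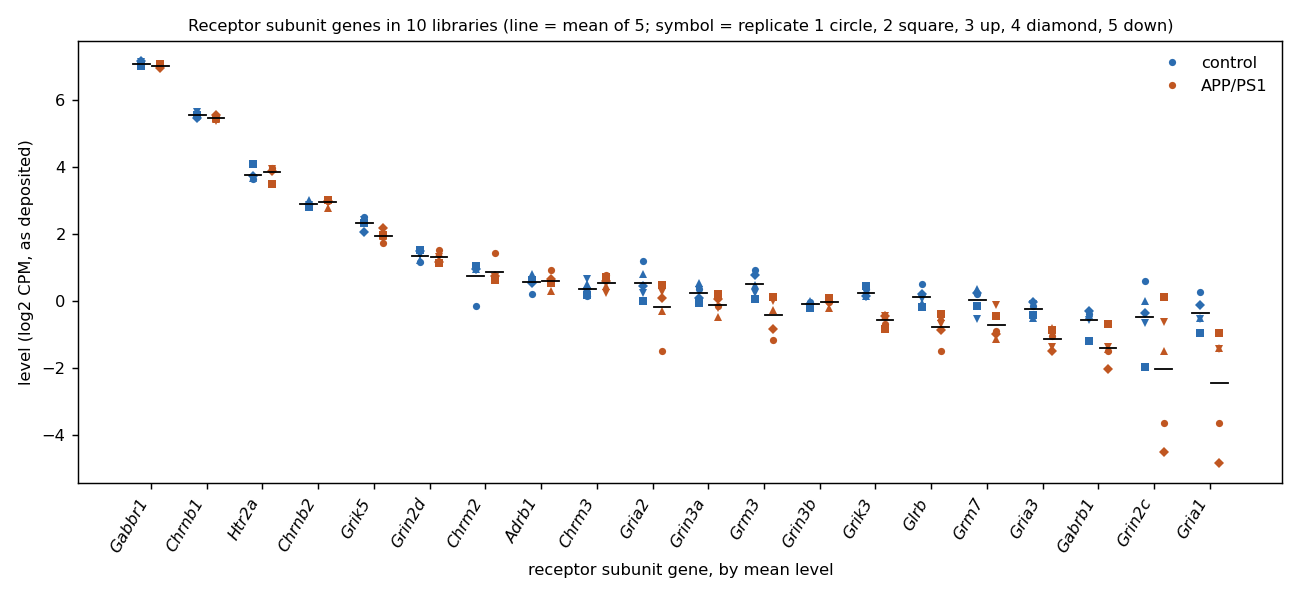
Level of each of 20 receptor subunit genes in log2 CPM (y axis) in 5 control (blue) and 5 APP/PS1 (orange) libraries, with genes ordered by mean level, not scaled to length (x axis), a line at each group mean and a symbol for each replicate number. The means run from 7.04 log2 CPM for Gabbr1 to −1.42 for Gria1, and the widest spread is that of the APP/PS1 libraries in Gria1 and Grin2c.

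The comparison of APP/PS1 with control BECs asked which receptor genes differ with the genotype. By limma with the pair as a block, 0 of the 21 genes passed an adjusted p under 0.05, as did 0 of all 14106 genes, and limma-voom also called 0 of the 21. At an unadjusted p under 0.05, 8 of the 21 were lower in APP/PS1 libraries, where 5.91% of all genes were, and 0 were higher, where 2.13% of all genes were (8.03% in either direction). In order of p these were Grik3, Gria3, Glrb, Grik5, Grm3, Gabrb1, Gria1 and Grm7, with adjusted p values between 0.319 and 0.605 from limma. The median difference of the 21 genes was −0.37 log2 units, against −0.0038 over all genes, and 14 of 21 had a lower mean, against 51.8% of all genes. With a replicate left out in turn, this median lay between −0.46 and −0.20, the latter without replicate 3. The count of 8 was 4 when any one of replicates 1, 3 and 4 was left out of both groups, and 5 by limma-voom. A filter on low counts kept genes with at least 10 adjusted counts in every library. It left 15 of the 21 genes, of which 4 were below an unadjusted p of 0.05, with a median of −0.03. The genes it removed all had lower means in APP/PS1 and fell short in APP/PS1 libraries only. The filter thus depends on the difference itself, and the median after it is no independent check.

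Grik3, Gria3 and Glrb were lower in all 5 pairs and their groups did not overlap. Over all genes, 5.0% were lower in all 5 pairs and 4.96% had groups that did not overlap in that direction. Since the batch correction set the pair means almost equal, the lack of overlap nearly follows from the direction of the pairs and adds little to it. No receptor gene was higher in all 5 pairs, compared with 2.99% of all genes. These 3 genes are also in the study's own list of changed genes, which was made from these libraries and is therefore no independent evidence. Without the pair as a block, limma gave them adjusted p values of 0.00284 (Grik3), 0.0174 (Gria3) and 0.0484 (Glrb), and these were the 3 receptor genes called by that model. That model counts 8 residual degrees of freedom where the batch correction leaves 4.

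**Figure D2:**
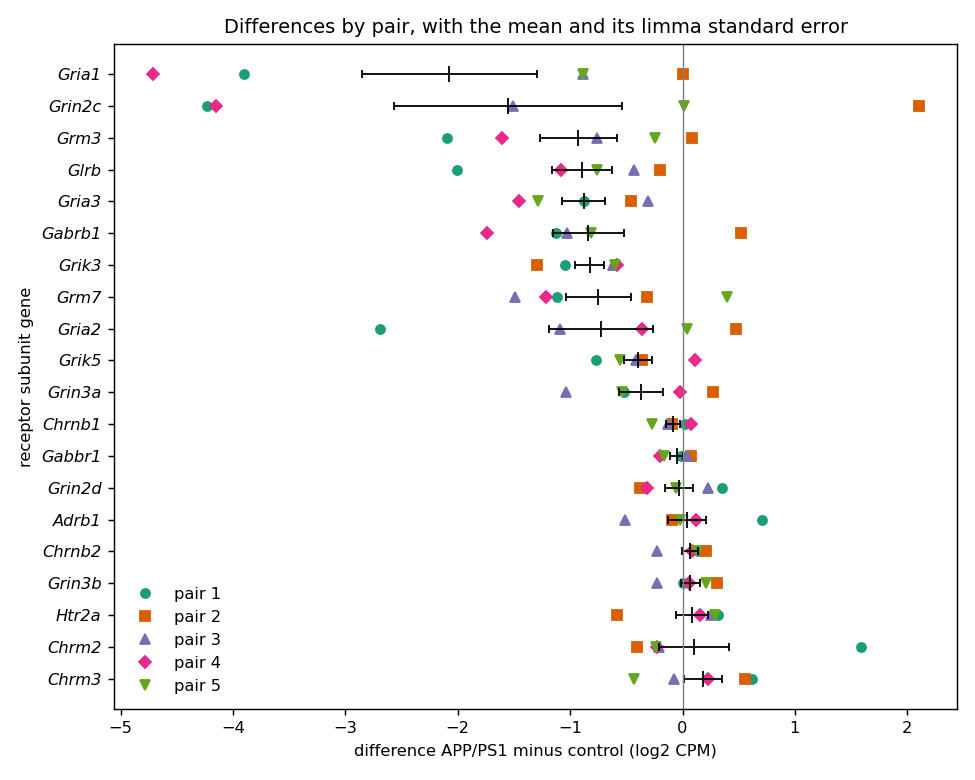
Difference between the APP/PS1 and the control library of each pair in log2 CPM (x axis) for 20 receptor subunit genes (y axis), with 1 symbol per pair, and the mean (tick) with its limma standard error (bar). Grik3, Gria3 and Glrb have all 5 pairs below 0, whereas Gria1 and Grin2c spread over several log2 units, with pairs 1 and 4 farthest below 0.

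Grik3 encodes a subunit of the kainate receptor, a glutamate-gated channel, and lies on chromosome 4 from 125490700 to 125714173 of GRCm38 (mm10). In control libraries 1 to 5 its level was 0.36, 0.44, 0.16, 0.13 and 0.14 log2 CPM. In APP/PS1 libraries 1 to 5 it was −0.69, −0.85, −0.46, −0.45 and −0.46. Every APP/PS1 library lay below every control library. The difference was −0.83 (standard error, SE, 0.127, limma adjusted p = 0.319), a fold of 0.564. It ranged from −1.29 in pair 2 to −0.58 in pair 4. The values rest on 29 to 163 adjusted counts in control and 13 to 77 in APP/PS1 libraries. With a replicate left out in turn, the difference stayed between −0.89 and −0.71.

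Grik5, which forms kainate receptors together with other subunits, was the most strongly measured of the glutamate receptor genes per length, at −0.24 ± 0.26 log2 CPM per kilobase. It lies on chromosome 7 from 25009849 to 25072346. Its control libraries were at 2.50, 2.31, 2.34, 2.06 and 2.40 log2 CPM, and its APP/PS1 libraries at 1.74, 1.95, 1.93, 2.18 and 1.85. The groups overlapped through pair 4 alone, in which the APP/PS1 library was higher by 0.11. The mean difference was −0.40 (SE 0.127, limma adjusted p = 0.569), with at least 73 adjusted counts in every library.

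The AMPA receptor carries most of the fast excitatory transmission in the brain, and its 3 measured subunit genes all had lower means in APP/PS1 libraries. Gria3, on chromosome X from 41400854 to 41678601, was at −0.16, −0.42, −0.51, −0.05 and −0.11 log2 CPM in control libraries 1 to 5. In APP/PS1 libraries it was at −1.04, −0.88, −0.82, −1.51 and −1.39. All 5 APP/PS1 libraries were below the lowest control library. The difference was −0.88 (SE 0.19, limma adjusted p = 0.461), a fold of 0.544.

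Gria1, on chromosome 11 from 57011387 to 57330244, had the largest mean difference of the 21 genes. It was represented by 27, 59, 47, 97 and 80 adjusted counts in control libraries 1 to 5. The APP/PS1 libraries held 1, 50, 24, 0 and 36. After the batch correction, APP/PS1 replicates 1 and 4 held almost no adjusted counts of Gria1. The libraries of pair 2 differed by only 0.0059 log2 units. The mean difference was −2.08 (SE 0.778, limma adjusted p = 0.597) on the scale with the prior count of 3, and −2.73 with a prior count of 0.5. It was −1.42 without replicate 4 and −1.62 without replicate 1.

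Gria2, which limits the calcium permeability of the AMPA receptor, lies on chromosome 3 from 80681450 to 80802835. It was at 1.18, −0.01, 0.79, 0.44 and 0.23 log2 CPM in control libraries and at −1.51, 0.46, −0.30, 0.08 and 0.27 in APP/PS1 libraries. The groups overlapped, and pair 1 alone differed by −2.69. The mean difference of −0.73 (SE 0.463, limma adjusted p = 0.801) was −0.23 without replicate 1.

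NMDA receptors are glutamate-gated channels that need a co-agonist, and the 4 measured subunit genes did not share a pattern. Grin2c, on chromosome 11 from 115249169 to 115267243, was at 34, 27, 68, 82 and 74 adjusted counts in control libraries and at 1, 110, 22, 1 and 65 in APP/PS1 libraries. Replicates 1 and 4 of APP/PS1 held almost no adjusted counts of it, while replicate 2, at 0.12 log2 CPM, lay within the control range of −1.98 to 0.58. Its difference was −4.23 in pair 1, −4.15 in pair 4 and 2.11 in pair 2, and the mean of −1.55 (SE 1.01, limma adjusted p = 0.806) was within this spread. Without replicate 2 it was −2.47, and without replicate 1 it was −0.89.

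The other NMDA receptor genes differed by less. Grin3a had a difference of −0.37 (SE 0.192, limma adjusted p = 0.733) and was lower in 4 of 5 pairs, and the difference was −0.20 without replicate 3. Grin2d, at 1.32 log2 CPM, had a difference of −0.03 (SE 0.126), and its groups overlapped. Grin3b, which encodes a glycine-binding subunit, had a difference of 0.07 (SE 0.0852), and all 10 libraries lay between −0.23 and 0.09 log2 CPM. Of the exonic bases of Grin3b, 32.1% are also covered by exons of Tmem259 on the opposite strand, which was at 6.68 log2 CPM, and 9.66% of those of Grin2d by Gm45441. Whether reads were counted by strand is not given in the sources used here, so how reads in the shared bases were assigned could not be told.

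Metabotropic glutamate receptors 3 and 7 inhibit adenylyl cyclase through G proteins. Grm3, on chromosome 5 from 9485541 to 9725170, was at 0.91, 0.04, 0.48, 0.77 and 0.23 log2 CPM in control libraries 1 to 5, and at −1.18, 0.12, −0.28, −0.84 and −0.02 in APP/PS1 libraries. The groups overlapped through pair 2, where the APP/PS1 library was higher by 0.08. The mean difference was −0.93 (SE 0.341, limma adjusted p = 0.594), and pairs 1 and 4 differed by −2.09 and −1.61.
Grm7, on chromosome 6 from 110645581 to 111567230, had a difference of −0.75 (SE 0.291, limma adjusted p = 0.605). Of the 5 pairs, 4 were lower, with −1.49 in pair 3, and higher by 0.40 in pair 5.

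Glrb encodes the β subunit of the glycine receptor, which anchors the channel at inhibitory synapses, and lies on chromosome 3 from 80843599 to 80913660. Its control libraries were at 0.50, −0.19, −0.06, 0.20 and 0.06 log2 CPM. Its APP/PS1 libraries were at −1.51, −0.39, −0.49, −0.88 and −0.70, all below the lowest control library. The difference was −0.90 (SE 0.265, limma adjusted p = 0.563), a fold of 0.537. It ranged from −2.01 in pair 1 to −0.20 in pair 2, and was −0.62 without replicate 1. The lowest library held 7 adjusted counts.

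The GABA receptor genes stood at opposite ends of the levels. Gabrb1, on chromosome 5 from 71658113 to 72149037, was at −0.58 ± 0.37 log2 CPM (SD, n = 5) in control libraries, and its APP/PS1 libraries were at −1.42 ± 0.48 (n = 5). Its difference was −0.84 (SE 0.313, limma adjusted p = 0.596), and it was higher by 0.52 in pair 2. Gabbr1, on chromosome 17 from 37045966 to 37075067, was at 7.05, 7.0, 7.02, 7.14 and 7.13 log2 CPM in control libraries and at 7.03, 7.08, 7.07, 6.94 and 6.96 in APP/PS1 libraries. The groups overlapped, with control libraries 4 and 5 above and APP/PS1 libraries 4 and 5 below the range they shared. The difference of −0.05 (SE 0.0603, limma adjusted p = 0.88) rests on at least 2903 adjusted counts per library, and no pair differed by more than 0.20.

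Promoter sequences are shown for 2 genes that were lower in all pairs and for 2 of the strongest genes per length, to set their base composition side by side. These are the 250 bases before the RefSeq start (GRCm38.p6), written 5′ to 3′ on the strand of the gene, with CG dinucleotides in capitals. The windows are chr4:125490446-125490695 (plus strand) for Grik3, chr3:80913661-80913910 (minus strand) for Glrb, chr17:37045716-37045965 (plus strand) for Gabbr1 and chr11:69795938-69796187 (minus strand) for Chrnb1.
Grik3: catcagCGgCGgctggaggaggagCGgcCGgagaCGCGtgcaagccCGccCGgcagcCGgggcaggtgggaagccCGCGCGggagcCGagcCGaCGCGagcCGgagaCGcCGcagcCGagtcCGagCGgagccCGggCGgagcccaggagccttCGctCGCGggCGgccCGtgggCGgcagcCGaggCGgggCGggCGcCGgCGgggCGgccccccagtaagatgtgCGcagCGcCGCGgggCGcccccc
Glrb: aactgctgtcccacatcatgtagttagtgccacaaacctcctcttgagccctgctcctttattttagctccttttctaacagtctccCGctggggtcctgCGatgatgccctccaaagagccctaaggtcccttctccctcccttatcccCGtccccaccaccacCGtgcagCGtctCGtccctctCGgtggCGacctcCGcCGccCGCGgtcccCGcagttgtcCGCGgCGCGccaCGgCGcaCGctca
Gabbr1: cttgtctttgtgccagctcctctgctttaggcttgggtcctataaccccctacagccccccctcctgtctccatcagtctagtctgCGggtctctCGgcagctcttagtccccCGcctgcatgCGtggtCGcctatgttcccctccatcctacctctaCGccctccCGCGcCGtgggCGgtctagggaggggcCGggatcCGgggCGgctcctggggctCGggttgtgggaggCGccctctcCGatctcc
Chrnb1: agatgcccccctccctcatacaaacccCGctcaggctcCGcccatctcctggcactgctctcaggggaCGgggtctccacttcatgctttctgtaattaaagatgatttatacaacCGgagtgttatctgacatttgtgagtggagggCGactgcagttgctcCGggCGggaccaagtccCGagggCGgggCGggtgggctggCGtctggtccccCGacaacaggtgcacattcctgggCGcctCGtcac
The window of Grik3 held 42 CG dinucleotides, that of Glrb 20, that of Gabbr1 16 and that of Chrnb1 14, compared with a median of 6 over all promoters. RefSeq windows were found for 17 of the 21 genes, and not for Gria3, which was also lower in all pairs. Gabrb1 and Grm7 had more than 1 window each, and the 19 windows had a median of 10 CG, from 2 to 42. The GC box GGGCGG, searched on both strands and itself containing a CG, was in 63.2% of these windows and in 32.7% of all promoters. The letters TATAAA, on either strand, were in 10.5% and 12.4%. All 4 windows shown thus held more CG than the median promoter, whereas those of Grin3b (2) and Htr2a (4) held fewer.

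The acetylcholine receptor genes showed no common direction. Chrnb1, on chromosome 11 from 69784036 to 69795943, was at 5.54 ± 0.07 log2 CPM (SD, n = 5) in control libraries and its APP/PS1 libraries at 5.46 ± 0.07 (n = 5), a difference of −0.08 (SE 0.0632, limma adjusted p = 0.835). Chrnb2, a β subunit of neuronal nicotinic receptors, was at 2.88 ± 0.08 and 2.95 ± 0.09, a difference of 0.07 (SE 0.0748, limma adjusted p = 0.877). Of its exonic bases, 16.3% are shared with Adar on the opposite strand, which was at 7.24 log2 CPM. Among the muscarinic receptors, Chrm2 was at −0.16, 1.04, 0.96, 0.96 and 0.96 log2 CPM in control libraries and at 1.43, 0.63, 0.74, 0.74 and 0.72 in APP/PS1 libraries. Pair 1 differed by 1.59 and the other 4 pairs by −0.41 to −0.21, so that the mean of 0.10 turned to −0.27 without replicate 1. Chrm3 had a difference of 0.18 (SE 0.168, limma adjusted p = 0.849), with 3 pairs higher and 2 lower, and it lay between 0.07 without replicate 1 and 0.33 without replicate 5.

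Of the amine receptors, Adrb1, the β1-adrenergic receptor, was at 0.57 log2 CPM, with a difference of 0.04 (SE 0.169). Htr2a, on chromosome 14 from 74640840 to 74709494, was at 3.63, 4.07, 3.67, 3.73 and 3.65 log2 CPM in control libraries and at 3.95, 3.48, 3.92, 3.88 and 3.94 in APP/PS1 libraries. Pair 2 was lower by 0.58 and the other 4 pairs were higher by 0.15 to 0.31. The mean difference of 0.08 (SE 0.146, limma adjusted p = 0.919) was 0.25 without replicate 2.

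Across the 21 genes, the difference followed the level, with Spearman's rho of 0.74 between the mean log2 CPM and the difference. The same rho over all genes was 0.24. The points share their libraries and the prior count, and this is a description. The mean level includes the APP/PS1 libraries, so a gene that is low in them is also placed lower in level. Of the 14 receptor genes under 1 log2 CPM, 10 had lower means and 7 were lower at an unadjusted p under 0.05, with a median of −0.79. Among all 1916 genes under that level, 15.4% were lower at that p, with a median of −0.05. Of the 7 receptor genes at or above it, only Grik5 was, with a median of −0.03, where 4.41% of all 12190 genes at or above that level were, with a median of −0.0019. The split at 1 log2 CPM uses the same mean level and was chosen after the values were seen. By transmitter, the 11 glutamate receptor genes had a median difference of −0.75, 10 with lower means, and the other 10 genes had a median of 0.05, 4 with lower means. These sets also differed in level, with medians of −0.07 and 1.86 log2 CPM. Of the other genes under 1 log2 CPM, Glrb (−0.90) and Gabrb1 (−0.84) had lower means. Chrm2 (0.10), Chrm3 (0.18) and Adrb1 (0.04), also under that level, did not.

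**Figure D3:**
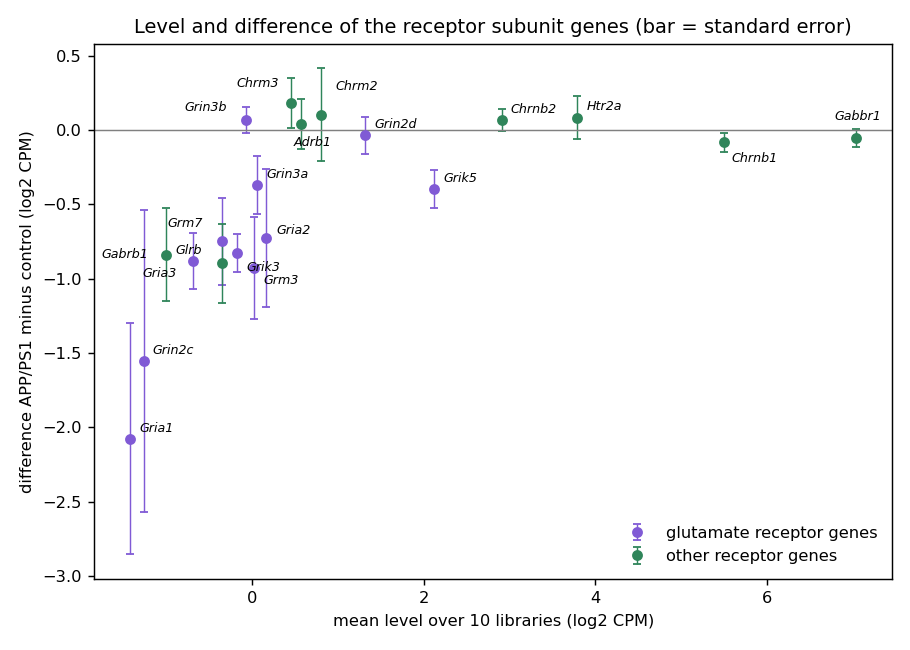
Mean level over 10 libraries in log2 CPM (x axis) and difference between APP/PS1 and control in log2 CPM with its limma standard error (y axis) for 11 glutamate receptor genes (purple) and 9 other receptor genes (green). The 4 genes with means of 2.91 log2 CPM or more, which are Chrnb2, Htr2a, Chrnb1 and Gabbr1, lie between −0.08 and 0.08, and the differences beyond −0.7 all belong to genes under 1 log2 CPM.

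Other genes of the same signalling systems were taken from 3 lists. Of 56 auxiliary subunits and scaffolds of receptors, 32 were tested, 24 had lower means, 13 were lower at an unadjusted p under 0.05 and 0 were higher, with a median difference of −0.18. Over all genes, 51.8% had lower means, 5.91% were lower at that p and 2.13% were higher. The smallest p values belonged to Shank2, a scaffold of excitatory synapses, with a difference of −1.08 (SE 0.123, limma adjusted p = 0.238), and to Nlgn2, an adhesion protein of inhibitory synapses, with −0.26 (SE 0.0445, adjusted p = 0.368). Both were lower in 5 of 5 pairs. Of 40 genes for synthesis, transport and breakdown of transmitters, 21 were tested, 16 had lower means and 5 were lower at that p, with a median of −0.12. Among these was Slc6a9, a glycine transporter (−0.44, adjusted p = 0.535 from limma). Of 50 genes of G protein and arrestin signalling, 43 were tested and 25 had lower means. Their median of −0.02 was close to that of all genes. At that p, 8 were lower, a larger share than the 5.91% over all genes. The smallest p values in that list were those of Adcy3 (−0.31) and Rgs4 (−0.77), each lower in 5 of 5 pairs with an adjusted p of 0.537 from limma. In these 3 lists, 0 genes were called over all genes tested. Some genes of these lists are also among the cell type markers below.

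Markers of several other cell types were lower in most of the same pairs as the glutamate receptor genes. The median difference of the 11 glutamate receptor genes was −1.04 in pair 1, 0.0059 in pair 2, −0.76 in pair 3, −0.58 in pair 4 and −0.25 in pair 5. For 9 neuron markers, the medians in the same order were −1.97, 0.15, −0.71, −1.36 and −1.12. For 13 astrocyte markers they were −2.57, 0.66, −1.41, −0.77 and −0.21, and for 9 oligodendrocyte markers −3.62, 1.31, −1.81, −4.11 and −2.36. Pair 1 was far below 0 and pair 2 above 0 in these 3 lists. The libraries of pair 1 also had the lowest totals, 22993426 (control) and 22371766 (APP/PS1) adjusted counts. Some of these markers had few adjusted counts in their lowest library, such as Snap25 (4), S100b (6) and Ugt8a (1). Whether depth bears on these medians was not tested. For 11 markers of oligodendrocyte precursor cells (OPC) the medians were −1.67, −0.37, −0.88, −0.37 and −0.12, and for 14 markers of pericytes and smooth muscle −1.67, −0.25, −0.62, −1.44 and 0.02. The 20 endothelial markers stayed between −0.03 and 0.13 in every pair. For 11 microglia markers the medians were 1.04, 0.25, −0.73, 0.11 and −0.66, above 0 in pair 1, where the glutamate receptor genes were lowest. For 6 fibroblast markers they were −1.34, −0.55, −0.72, −0.17 and −0.20. For 5 choroid plexus and ependyma markers they were −0.96, −0.73, −0.55, −0.81 and 0.0043.

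**Figure D4:**
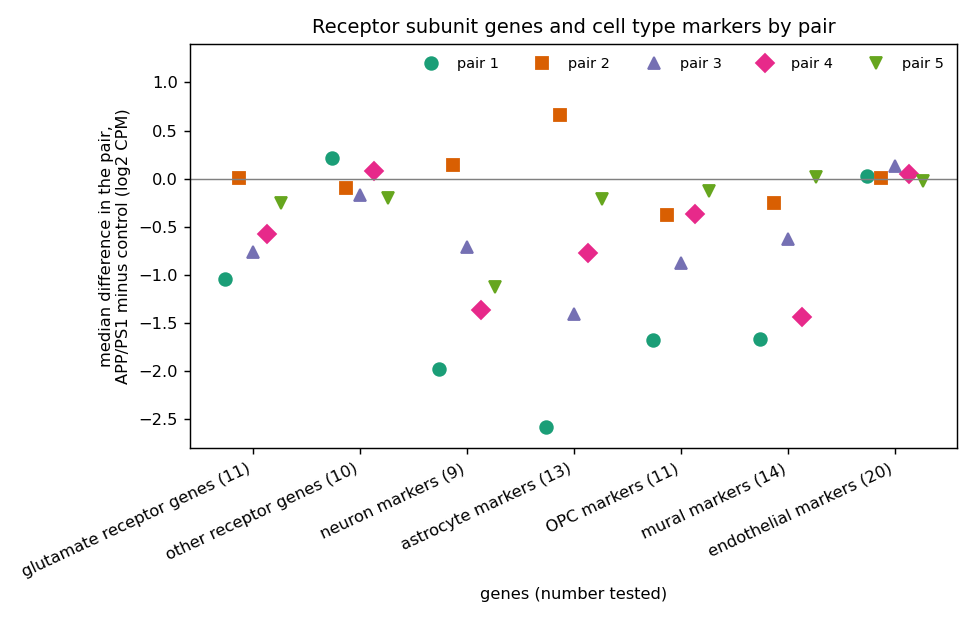
Median difference between the APP/PS1 and the control library in log2 CPM (y axis) in each of 5 pairs (symbols) for the receptor subunit genes and for lists of cell type markers (x axis, with the number of genes tested). The oligodendrocyte, microglia, fibroblast, and choroid plexus and ependyma lists are not plotted. Pair 1 has the lowest library totals. It is the lowest of the glutamate receptor genes at −1.04 and of the neuron (−1.97), astrocyte (−2.57) and OPC (−1.67) markers. The endothelial markers stay near 0 in every pair.

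The summed level of the neuron markers was 123 to 147 CPM in control and 115 to 136 CPM in APP/PS1 libraries, of the astrocyte markers 248 to 298 and 261 to 321, and of the OPC markers 46.9 to 66.6 and 34.4 to 45.2. It was 42.5 to 279 and 35.8 to 144 CPM for oligodendrocytes and 650 to 1097 and 338 to 656 for mural cells. For microglia it was 58.3 to 70.4 and 54.7 to 66.4, for fibroblasts 44.1 to 58.0 and 35.1 to 46.9, and for choroid plexus and ependyma 57.9 to 92.8 and 42.8 to 63.8. Endothelial markers summed to between 35683 and 39650 CPM. Such sums weigh the strongest genes of a list most. The lowest adjusted count of a library was 2198 for the neuron marker Stmn2, and at most 236 for the other neuron markers. For the astrocyte markers it was 3271 for Gja1 and 2375 for Fgfr3, and at most 87 for the others. Means were lower in APP/PS1 for 8 of 9 neuron, 12 of 13 astrocyte, 9 of 11 OPC, 8 of 9 oligodendrocyte and all 14 mural markers, and 6, 3, 5, 5 and 11 of them had an unadjusted p under 0.05, as had 5.91% of all genes in that direction. The mean level of the list had an exact sign-flip p over 5 pairs of 0.125 for neurons, 0.188 for astrocytes, 0.0625 for OPC, 0.188 for oligodendrocytes and 0.0625 for mural cells, where 0.0625 is the smallest that 5 pairs allow.
Of the remaining lists, 6 of 6 fibroblast and 4 of 5 choroid plexus and ependyma markers had lower means (exact sign-flip p = 0.0625 each), as had 6 of 11 microglia markers (p = 0.938) and 5 of 20 endothelial markers (p = 0.25). An adjusted count of 0 was found for the oligodendrocyte markers Mag (1 library) and Ermn (2 libraries) and for the OPC marker Neu4 (2 libraries). The paper reports a high purity of the isolated cells by flow cytometry. It also describes neuronal genes as expressed in brain endothelium, for which it proposes several possible reasons. In bulk RNA, fewer cells of a type and less RNA per cell cannot be told apart, and the part of these markers in the differences of the receptor genes was not tested.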

How the data were processed

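RNA of BECs was sequenced in 5 control and 5 APP/PS1 libraries. By the paper's methods and the submitters' processing notes, the authors aligned reads to mm10 with STAR, counted them with HTSeq, left out genes with low counts with edgeR and corrected for batch with ComBat. They deposited log2 CPM of 14106 genes, and the 10 library files equalled its columns. Tool versions and the use of strand are not given in the sources used here. The log2 values convert to whole adjusted counts (100% within 0.02, prior count 3). Since adjusted counts differ from reads, intervals for counting error were left out.

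The deposited log2 values were fitted with lmFit and eBayes of limma 3.58.1 (R 4.3.3) with genotype and 5 pairs, with Benjamini-Hochberg adjustment across 14106 genes (threshold 0.05). The pairing comes from the batches of the sample labels for replicates 1 to 3, and from the study's plot of 5 batches for replicates 4 and 5, which share a label batch. Deviations of paired libraries had rank correlations of −0.999 to −0.989 in 10873 genes above 2 log2 CPM, which the correction itself produces. The simulated data held 200 changed genes, drawn from all 14106. The fit recovered 50% of changes of 0.5 and 83% of changes of 1 log2 unit, with 5 false calls. With no change simulated it called 0 genes, and 345 without the pairs. The simulated libraries of a pair mirrored each other exactly around the gene mean, with normal errors. An excess of calls without the pairs is therefore built into the simulation. The SD over pairs of the deviation from the pair mean had a median of 0.086 over all genes and 0.221 over the receptor genes. The recovery rates therefore cannot be carried over to the receptor genes.

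Symbols, lengths and positions came from GENCODE M21 (GRCm38, also called mm10), which held all 14106 genes. Promoters came from RefSeq. Receptor genes and lists were chosen with earlier results of these data known. Named genes were those with an unadjusted p under 0.05, the 2 strongest per class by length, the largest changes of one direction in all pairs, those of the study's list and the 2 smallest p values of each other list. Grin2c and Grin3a fall outside this rule and were named to account for every gene. Some markers were also named for the highest counts of their list or for counts of 0. The alternatives tried are given in the closing section. The values of 1 receptor gene and of 1 gene of the other lists are not reported here, although both genes are counted, and 20 genes are plotted one by one.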

Additional observations from a re-analysis of the deposited data

Results flagged for a closer look

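In groups of 5 libraries, a library was picked out when the distance to its closest neighbour was over 0.71 of the range of the 5. This was found in 5 of 42 groups (21 genes in 2 groups), where chance alone gives about 1 in 20, or 2.1. The libraries of a pair mirror each other after the batch correction, so the 2 groups of a gene are not independent.

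For Chrm2, replicate 1 stood apart in both groups, at −0.16 log2 CPM in control (gap 0.928 of the range) and at 1.43 in APP/PS1 libraries (0.862). For Htr2a, replicate 2 stood apart in both groups, at 4.07 in control (0.791) and at 3.48 in APP/PS1 libraries (0.848). For Chrnb2, replicate 3 of APP/PS1 stood apart at 2.78 log2 CPM (0.762).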

How the results depend on the processing

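Without the replicate block, limma called 648 genes, 3 of them receptor genes (Grik3, Gria3 and Glrb). At an unadjusted p under 0.05 it then gave 1837 lower and 1212 higher genes, and 9 lower and 1 higher receptor genes. With the 4 label batches, 1 gene was called and 517 were higher at that p. By limma-voom, 5 receptor genes were lower at that p, and Adrb1 (−0.032) and Chrm2 (−0.16) changed sign. With at least 10 adjusted counts in every library, Gabrb1, Glrb, Gria1, Gria2, Grin2c and Grm3 dropped out. All of these had lower means in APP/PS1, and their counts under 10 lay in APP/PS1 libraries, so this filter depends on the difference itself. Of the other 15 receptor genes, 4 were lower at that p and 8 had lower means, with a median of −0.034. The cause of these shifts was not tested, apart from the 6 genes lost.

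With 1 replicate left out of both groups, 0 to 5 genes were called (5 without replicate 2, 1 without replicate 5) and 0 receptor genes. At an unadjusted p under 0.05, 4 to 9 receptor genes were lower and 0 to 2 higher (2 without replicate 2), as were 517 to 1182 genes lower and 201 to 826 higher. Receptor genes lower in every remaining pair numbered 3 to 7 and higher 0 to 2. The difference ranged from −0.13 to 0.051 for Grin2d (above 0 without replicate 2 or 4), from −0.13 to 0.18 for Adrb1 and from −0.27 to 0.23 for Chrm2 (both below 0 without replicate 1). The mean trend, a prior count of 0.5, median-of-ratios factors and an adjusted p under 0.10 changed no direction and no call of a receptor gene. With the longest transcript as the length, 9 levels moved by over their SD. Levels under 1 log2 CPM rest on few counts.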

Other observations

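The 8 receptor genes with an unadjusted p under 0.05 spanned a median of 259 kilobases of the genome from first to last exon, and the other 13 spanned a median of 29.1 kilobases. Their exonic lengths were alike, with medians of 5.97 and 6.05 kilobases, against 4.16 kilobases over all genes. Their median levels were −0.35 and 0.80 log2 CPM. This comparison was chosen after the values were seen, and it was not tested.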
